A study of Mus musculus with 4 samples.

Results

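Transcriptomes of single cells were compared between embryoid bodies kept for 48 h in hypoxia at the end of a 10 d culture and embryoid bodies of the same age kept in normoxia throughout. All barcodes of the 2 libraries entered, and those with at least 500 detected genes and at most 15% of unique molecular identifiers (UMIs) from genes whose symbols begin with mt- were kept. This left 2679 of 2802 barcodes of the normoxic library, labelled Nx10, and 4616 of 4746 barcodes of the hypoxic library, labelled Hx10. These 7295 cells came from a series of 13808 kept cells.

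Embryoid bodies are aggregates in which embryonic stem cells differentiate without a fixed pattern, and they were grown here from R1, an established mouse embryonic stem cell line, with no genetic change given in the labels. Hx10 had spent 8 d in normoxia before its 48 h of hypoxia. A second pair of libraries, Nx8 with 8 d of normoxia and Hx8 with hypoxia for the last 16 h of 8 d, is used below only side by side. Each group was 1 library of dissociated embryoid bodies, so no difference had a replicate check, no p-value was computed, and every interval covers counting error only. The sources used here did not state the percentage of oxygen.

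Cells sense oxygen through prolyl hydroxylases, which need it to mark the alpha subunits of hypoxia-inducible factor (HIF) for destruction. When oxygen is short, HIF accumulates, binds short DNA elements with the core RCGTG and raises transcription of genes for glycolysis, glucose uptake, blood vessel growth and its own hydroxylases, while respiration is held down. Longer or deeper hypoxia is also known to engage the integrated stress response, in which phosphorylation of eIF2alpha slows protein synthesis and favours translation of the transcription factor ATF4.

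The hypoxic library was shallower per cell. The median cell held 20332 UMIs and 4888 genes in Nx10 and 12802 UMIs and 3149.5 genes in Hx10, from 62614780 and 76831735 kept UMIs in all. Nx10 and Hx10 shared 5 barcodes. The 6 markers of pluripotency summed to 5.88 CPM (counts scaled to the library total) in Nx10 and 4.41 CPM in Hx10, against 8923 and 3718 CPM for 10 fibroblast markers, so stem cell transcripts were close to absent on both sides. Markers of 8 smooth muscle genes summed to 1881 and 7675 CPM, of 14 macrophage genes to 713 and 127 CPM, of 10 erythroid genes to 567 and 35.7 CPM and of 11 endoderm genes to 502 and 960.5 CPM. From summed libraries alone, fewer cells of a type and less RNA per cell cannot be told apart. In the clusters described below, erythroid-like cells were 23 of 2679 in Nx10 (0.859%) and 55 of 4616 in Hx10 (1.19%). Macrophage-like cells were 192 (7.17%) and 118 (2.56%), and endoderm-like cells 66 (2.46%) and 60 (1.30%). The part of cell numbers in the summed marker levels was not tested.

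Levels are UMIs summed over cells as CPM of all UMIs, and differences are log2 ratios of CPM + 1, hypoxia over normoxia. Of 6255 genes averaging 20 CPM or more, 340 (5.44%) passed 2-fold upwards and 1238 (19.8%) downwards in Hx10. This balance depended on the scaling. With trimmed mean of M-values (TMM) scaling, which raised every ratio by 0.54 and so turned the sign of ratios between -0.54 and 0, 1106 genes were higher and 502 lower, and after centring on the median of all genes 599 were higher and 819 lower. Gene lists are therefore read below against the median of all 10329 genes averaging 5 CPM or more, which was -0.44. Of those genes 11.0% were at least 1.5-fold higher and 43.2% at least 1.5-fold lower, and these are the shares beside which each list's counts stand.

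**Figure D1:**
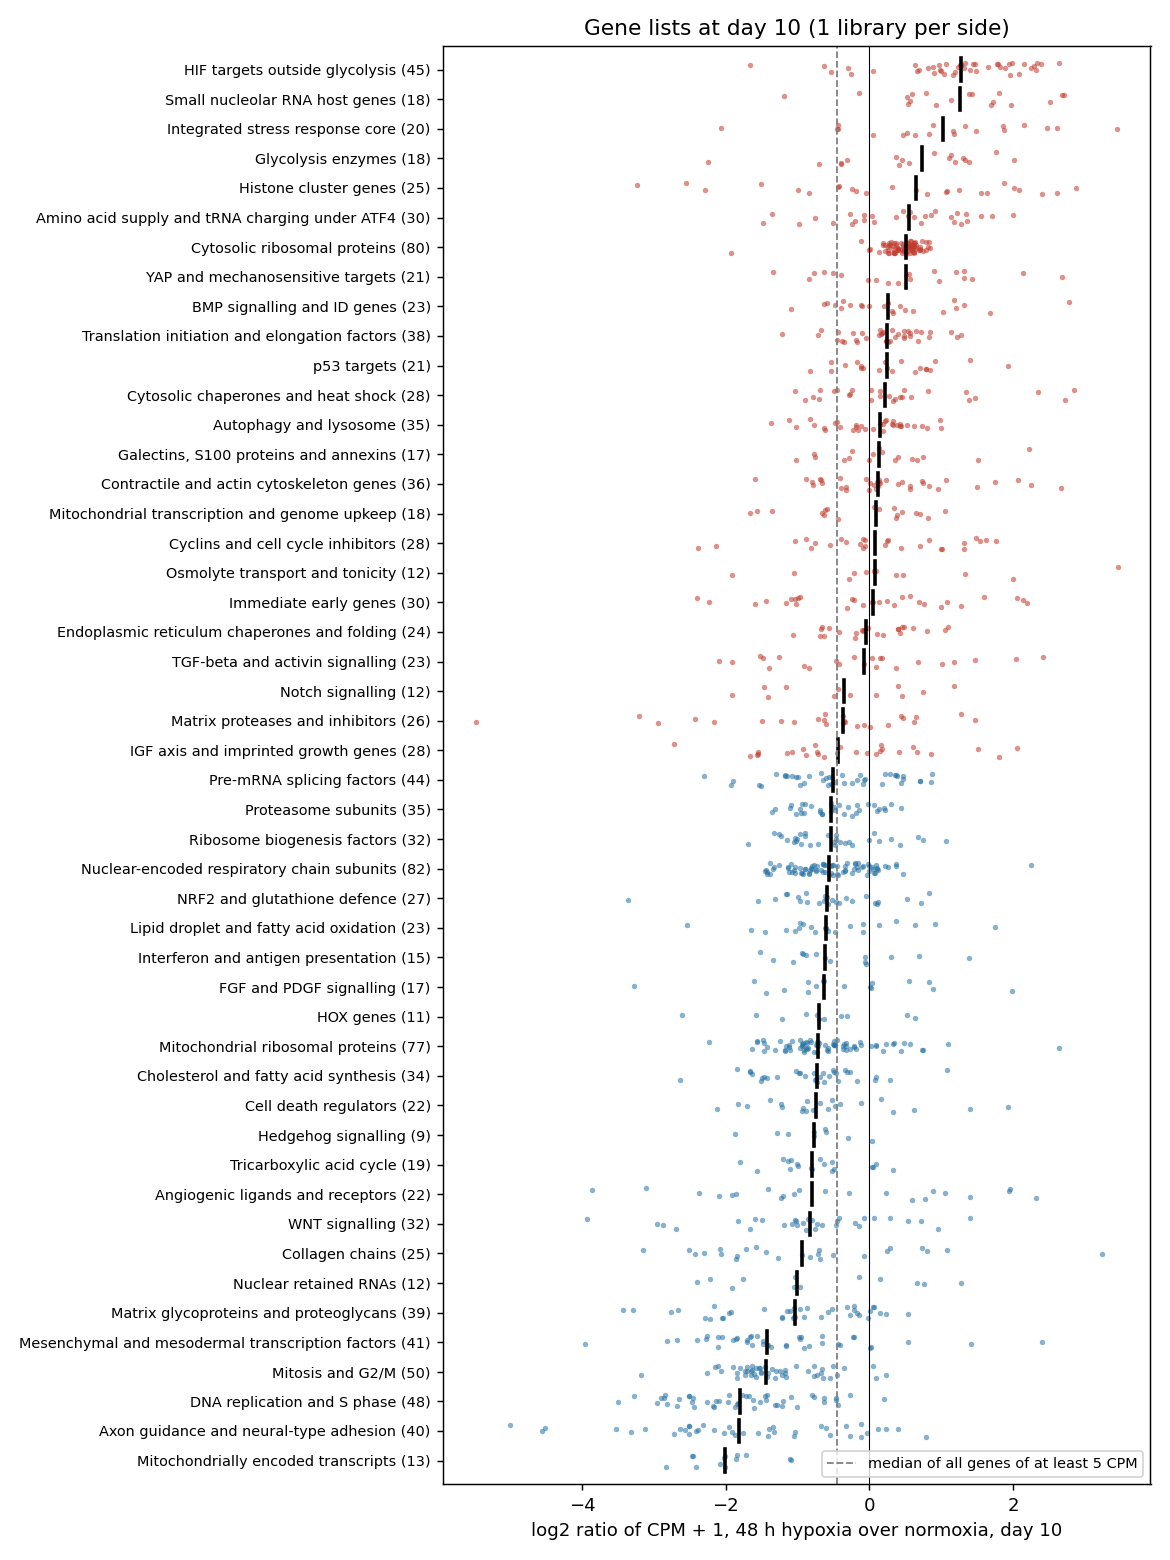
Log2 ratio of CPM + 1 (x axis, Hx10 over Nx10) of the tested members of each gene list (y axis, number of members in brackets); points are genes, black bars are list medians, the dashed line is the median of all genes, and lists with a median above it are red and the others blue. HIF targets and small nucleolar RNA host genes lie farthest right, and mitochondrially encoded transcripts, axon guidance genes and S phase genes farthest left.

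Targets of HIF outside glycolysis had the largest median of the 49 lists. Of 45 members tested, 39 were at least 1.5-fold higher and 2 lower, and the median log2 ratio was 1.28, which is 1.73 above the median of all genes. Ak4, a mitochondrial adenylate kinase, went from 7.08 CPM in Nx10 to 49.1 CPM in Hx10, a log2 ratio of 2.63. Egln3, a prolyl hydroxylase that marks HIF itself, was at 11.7 CPM in Nx10 and 65.8 CPM in Hx10. Adm, the vasodilator peptide adrenomedullin, was at 5.29 and 30.4 CPM, Cox4i2, the hypoxic isoform of a cytochrome oxidase subunit, at 7 and 37.2 CPM, and Stc2, a secreted glycoprotein, at 1.80 and 11.5 CPM. Each of these was higher in Hx10 by more than its counting interval, and that for Ak4 ran 2.65 to 2.94 for the log2 ratio without pseudocount. A few listed targets did not follow. Rora, a nuclear receptor, was at 345 CPM in Nx10 and 108 CPM in Hx10, and Loxl2, a lysyl oxidase that cross-links collagen, at 264 and 169.9 CPM. Gbe1, the glycogen branching enzyme, was at 35.9 and 30 CPM. It was not among the 2 lower members and turned higher in Hx10 with TMM scaling. Hif1a mRNA itself was at 203 CPM in Nx10 and 269 CPM in Hx10.

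Glycolytic enzymes were less uniform, with 9 of 18 higher, 2 lower and a median of 0.73. Pgk1, phosphoglycerate kinase, was at 408 CPM in Nx10 and 1653 CPM in Hx10, and Pfkp, the platelet-type phosphofructokinase, at 38.2 and 132 CPM. The isoforms of lactate dehydrogenase went opposite ways. Ldha, the lactate dehydrogenase subunit that favours lactate production, was at 436 CPM in Nx10 and 1082 CPM in Hx10, a log2 ratio of 1.31, while Ldhb, the subunit typical of oxidative tissue, was at 72.8 and 14.6 CPM, a log2 ratio of -2.25. Aldoa, the main aldolase, was at 706 and 1850.4 CPM, and its relative Aldoc at 12 and 8.81 CPM. Hk2, an inducible hexokinase, was at 128 and 103 CPM. The last 2 genes turned higher in Hx10 with TMM scaling.

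Promoter sequence was taken from RefSeq (GRCm38.p6, the build of the count tables), as the 250 bases before each annotated start. The motif ACGTG or GCGTG, read on both strands, was in 71.1% of the 45 promoters matched to 33 tested HIF targets and in 72.4% of 29 promoters of the glycolytic enzymes, against 38.6% of all 32851 promoters. Neither share was particular to these lists, since the motif was also in 81.0% of 21 promoters of reticulum chaperones and 77.8% of 27 promoters of cyclins and cell cycle inhibitors. ACGTG alone was in 22 of 45 HIF target promoters (48.9%) and 16.6% of all, but also in 18 of 36 promoters of translation factors and 42.9% of those of the reticulum chaperones. It overlaps the E-box CACGTG, found in 6.02% of all. Members with an ACGTG had a median log2 ratio of 1.22 and those without one 1.32. The promoters of Ak4 (chr4:101419453-101419702, plus strand) and Pgk1 (chrX:106186850-106187099, plus strand) are shown because these genes had the largest ratio of their lists among members with a match; capitals mark ACGTG or its reverse complement, and in Ak4 the capitals are an E-box that holds it on both strands.
Ak4: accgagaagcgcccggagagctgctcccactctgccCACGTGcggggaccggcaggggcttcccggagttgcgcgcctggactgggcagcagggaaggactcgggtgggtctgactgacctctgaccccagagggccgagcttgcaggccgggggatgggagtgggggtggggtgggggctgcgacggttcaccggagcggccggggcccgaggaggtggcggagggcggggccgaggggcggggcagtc
Pgk1: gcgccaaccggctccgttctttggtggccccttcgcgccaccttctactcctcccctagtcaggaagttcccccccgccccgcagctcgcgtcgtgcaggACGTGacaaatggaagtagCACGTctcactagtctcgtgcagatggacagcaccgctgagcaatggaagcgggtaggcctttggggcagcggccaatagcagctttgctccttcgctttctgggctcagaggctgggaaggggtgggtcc

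All 13 messenger RNAs encoded by mitochondrial DNA were lower in Hx10, with a median of -2.02, and they summed to 40519 CPM in Nx10 and 11090 CPM in Hx10. These RNAs specify core subunits of the respiratory chain. The difference was unequal among them. The log2 ratio farthest from 0 was that of mt-Nd3, at -2.83 (1169 and 164 CPM), and the nearest were those of mt-Co1, at -1.09 (6181 and 2894 CPM), and mt-Nd6, the only one transcribed from the other strand, at -1.10. Genes in the nucleus that serve the same organelle differed far less. The 82 tested nuclear subunits of the respiratory chain had a median of -0.56 with 1 higher and 40 lower, or 48.8% lower against 43.2% of all genes, and with TMM scaling the median was -0.02. Genes of mitochondrial transcription and genome upkeep did not move as a block. Of 18 tested, 4 were higher (22.2%) and 7 lower (38.9%), with a median of 0.09, which is 0.54 above all genes. The sign of that median depended on the processing, with a range of -0.43 to 0.61 over the alternatives tried. The list summed to 653 CPM in Nx10 and 566 CPM in Hx10. Tfam, which packages and transcribes mitochondrial DNA, was at 48.1 CPM in Nx10 and 18.1 CPM in Hx10, and Ssbp1, its single-strand binding protein, at 93.2 and 28.8 CPM. Polg2, the accessory subunit of the mitochondrial polymerase, was higher, at 8.61 and 18.9 CPM. Of 19 genes of the tricarboxylic acid cycle 0 were higher and 12 lower, with Idh2, the mitochondrial isocitrate dehydrogenase, at 214 and 60.8 CPM. Cs, citrate synthase, the entry step, was at 63.8 and 80.4 CPM.

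The core of the integrated stress response stood 1.47 above all genes, with 13 of 20 members higher, 1 lower and a median of 1.02. Atf4 was at 74.2 CPM in Nx10 and 274 CPM in Hx10, and Ddit3, which encodes the factor CHOP, at 32.9 and 122 CPM. Trib3, a pseudokinase induced by both, was at 1.34 and 12 CPM. Nupr1, a small stress-induced chromatin protein, was at 59.4 and 368 CPM. Fgf21, a secreted hormone of amino acid and mitochondrial stress, was at 0.0799 CPM in Nx10 and 10.8 CPM in Hx10, from near 0 to a low level. The member that was lower, Eif2ak2, is the kinase that senses double-stranded RNA and was at 35 and 7.55 CPM.

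Genes for amino acid uptake, synthesis and tRNA charging under ATF4 had a median of 0.55, with 14 of 30 higher and 4 lower. Transporters led the list. Slc38a2, the sodium-coupled neutral amino acid transporter SNAT2, was at 129 CPM in Nx10 and 522 CPM in Hx10, a log2 ratio of 2.01 with a counting interval of 1.98 to 2.05. Slc7a5 and Slc3a2, the light and heavy chains of the leucine transporter, were at 6.15 and 22.2 CPM and at 81.7 and 209.5 CPM. Mthfd2, the mitochondrial folate enzyme, was at 19.5 and 59.2 CPM, and Asns, asparagine synthetase, at 11.4 and 26.9 CPM. Pycr1, the last enzyme of proline synthesis in mitochondria, was lower, at 13.3 and 4.13 CPM, and so was the valyl-tRNA synthetase Vars, with a log2 ratio of -1.35. The element TGATGNAA, bound by ATF4 with C/EBP partners, was in 6 of 26 promoters of the list (23.1%) against 3.45% of all promoters, while members with and without it had medians of 0.54 and 0.74. The promoter of Asns (chr6:7693210-7693459, minus strand), the member with the largest ratio among those with a match, holds it 23 bases before the start, in capitals.
Asns: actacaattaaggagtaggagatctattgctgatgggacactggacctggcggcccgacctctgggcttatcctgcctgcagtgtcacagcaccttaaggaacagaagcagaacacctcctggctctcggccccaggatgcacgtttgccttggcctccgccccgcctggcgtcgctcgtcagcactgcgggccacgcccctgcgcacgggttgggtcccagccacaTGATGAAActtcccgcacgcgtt

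Other arms of the stress response did not move as a block. Chaperones of the endoplasmic reticulum had 4 of 24 higher and 5 lower, with a median of -0.05. Hspa5, the reticulum chaperone BiP, was at 338 CPM in Nx10 and 703 CPM in Hx10 and Herpud1, of its degradation pathway, at 32.5 and 70.6 CPM, whereas Calr and Creld2 had log2 ratios of -0.68 and -1.06. Among 28 cytosolic chaperones 7 were higher and 5 lower. The inducible Hspa1a was at 1.45 and 15.2 CPM and Hspa4l, an HSP110-type exchange factor, at 7.49 and 60 CPM, while the mitochondrial chaperonin Hspd1 was at 347 and 168 CPM. Genes of the NRF2 antioxidant programme had 2 of 27 higher and 14 lower, with a median of -0.59. Gsta4, a glutathione transferase for lipid aldehydes, was at 27.7 CPM in Nx10 and 1.80 CPM in Hx10, Txnrd1, thioredoxin reductase, at 78.4 and 26 CPM and Hmox1, haem oxygenase, a target of both NRF2 and HIF, at 21.1 and 38.2 CPM. Targets of p53 had 8 of 21 higher and 1 lower, with the death-promoting Bbc3 (PUMA) at 13.6 and 54.6 CPM and Mdm2, the ligase that degrades p53, at 93.3 and 176 CPM. The 22 regulators of cell death had 3 higher and 12 lower, Casp8, the initiator caspase of death receptors, being at 17.6 and 3.29 CPM.

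The gene with the largest ratio of all that were ranked was an osmolyte transporter. Slc5a3 (ENSMUSG00000089774, chr16:92058322-92087473), the sodium and myo-inositol cotransporter, was at 15.1 CPM in Nx10 and 177 CPM in Hx10, a log2 ratio of 3.47. It lies within the span of Mrps6, a mitochondrial ribosomal protein gene, which was at 49.7 and 314 CPM, and counts of the overlapping pair may not be separable. Akr1b3, aldose reductase, which makes sorbitol, was also higher, at 47.2 and 120.0 CPM. The other osmolyte genes did not follow, with 3 of 12 higher, 2 lower and a median of 0.08. Impa1, which frees myo-inositol from its phosphate, was lower, at 27.8 and 6.60 CPM, and Nfat5, the transcription factor of the tonicity response, was at 264 and 255 CPM.

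**Figure D2:**
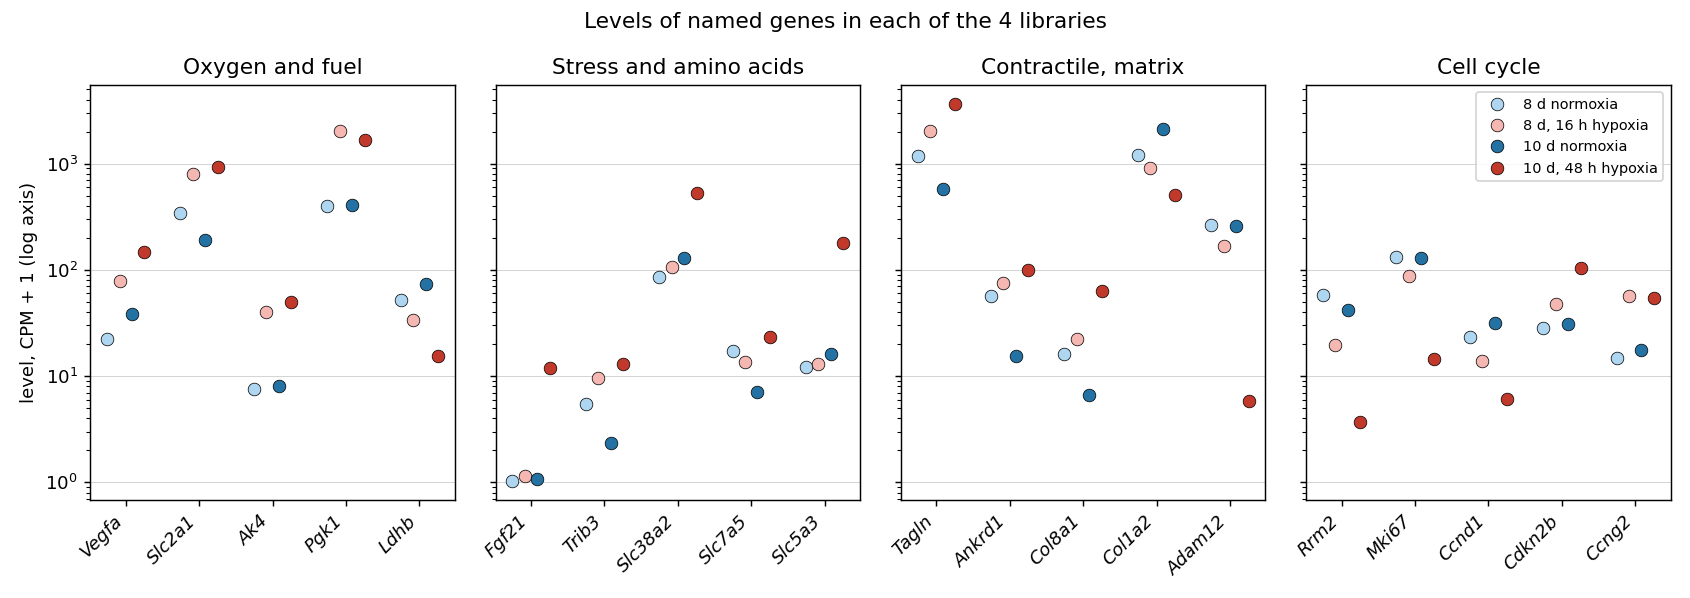
Level as CPM + 1 (y axis, log scale) of 20 named genes (x axis) in all 4 libraries, 1 point per library with no error bar. At day 10 the hypoxic library lies above the normoxic one for Slc5a3, Slc38a2 and Tagln and below it for Ldhb, Adam12 and Mki67.

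Host genes of small nucleolar RNAs, which carry guide RNAs for ribosomal RNA modification in their introns, had a median of 1.26, or 1.70 above all genes. Of 18 tested, 13 were higher and 1 was lower. It is known that many spliced host RNAs end in early stop codons and are removed by nonsense-mediated decay, which needs translation. Snhg12 (ENSMUSG00000086290, chr4:132308623-132311024) was at 54 CPM in Nx10 and 352 CPM in Hx10, Snhg1 at 168 and 969 CPM, Snhg16 at 8.58 and 61.5 CPM and Gas5 at 359 and 1186 CPM. The exception was Snhg11, with a log2 ratio of -1.19. Malat1, a long RNA kept in the nucleus, was at 16054 and 27235 CPM, and Neat1, the scaffold of paraspeckles, at 81.7 and 199.6 CPM (log2 ratios of 1.28 over all cells and 2.08 without macrophage-, endoderm-, erythroid-, cardiomyocyte- and endothelial-like cells), but 7 of 12 nuclear retained RNAs were lower, with Kcnq1ot1, the antisense RNA of an imprinted domain, at 156 and 28.7 CPM.

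Transcripts of the translation machinery were not alike across its groups. Cytosolic ribosomal protein genes had 25 of 80 higher, 1 lower and a median of 0.51, and Rps16 was at 3359.8 CPM in Nx10 and 6041 CPM in Hx10. Initiation and elongation factors had 8 of 38 higher and 3 lower, with Eif1, which sets start codon choice, at 965 and 2344 CPM, and Eif4ebp1, the inhibitor of cap binding, at 131 and 291 CPM. Factors that build ribosomes had 3 of 32 higher (9.4%) and 15 lower (46.9%), shares near those of all genes (11.0% and 43.2%). Their median of -0.54 was 0.10 below all genes, while their summed level was 4259 CPM in Nx10 and 5134 CPM in Hx10. Dkc1, the pseudouridine synthase that works with small nucleolar RNAs, was at 39.1 CPM in Nx10 and 11.5 CPM in Hx10, and Ncl, nucleolin, at 630.4 and 304 CPM. Splicing factors had a median of -0.51, 0.06 below all genes. The cold-induced RNA-binding protein Cirbp was nevertheless at 50.4 and 9.38 CPM, and the SR proteins Srsf5 and Srsf3 at 257 and 67.9 CPM and at 334 and 114 CPM, while Srsf11 was at 230.4 and 423 CPM.

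Genes of proliferation were lower almost without exception. Of 48 S phase genes 0 were higher and 43 lower, with a median of -1.80, and of 50 mitotic genes 0 were higher and 43 lower, with a median of -1.44. Rrm2, the ribonucleotide reductase subunit that limits nucleotide supply, was at 40.7 CPM in Nx10 and 2.67 CPM in Hx10. Pola1, the catalytic subunit of the polymerase that primes replication, was at 68.5 and 7.93 CPM. Mki67, which coats mitotic chromosomes, was at 129 CPM in Nx10 and 13.3 CPM in Hx10. Cdt1, a licensing factor, stood apart from its list at 32.7 and 37.8 CPM, as did Cks2, a cyclin-dependent kinase subunit, at 185 and 197 CPM. Regulators of the G1 phase were mixed, with 10 of 28 cyclins and inhibitors higher and 6 lower. Ccnd1, cyclin D1, was at 30.6 and 5.04 CPM, a log2 ratio of -2.39 that was -1.82 with cell classes weighted to their Nx10 shares and -0.17 without the 5 classes of cells left out for Neat1. The inhibitor Cdkn2b was at 30 and 104 CPM, Ccng2, an unconventional cyclin of arrested cells, at 16.8 and 53.7 CPM, and the inhibitor Cdkn1c lower, at 424 and 251 CPM.

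An E2F-type element, TTTNNCGC, was in 12 of 47 promoters of tested S phase genes (25.5%) against 4.28% of all promoters, and the cell cycle homology region TTTGAA was in 19 of 46 promoters of mitotic genes (41.3%) against 16.0%. Within both lists the medians of members with and without the motif lay close together. They were -1.72 and -1.78 for S phase genes with and without the element, and -1.52 and -1.37 for mitotic genes. The promoters of Pola1 (chrX:93632156-93632405, minus strand) and Mki67 (chr7:135716380-135716629, minus strand) had the lowest ratios of their lists among members with a match; capitals mark the element, which in Pola1 is on the reverse strand.
Pola1: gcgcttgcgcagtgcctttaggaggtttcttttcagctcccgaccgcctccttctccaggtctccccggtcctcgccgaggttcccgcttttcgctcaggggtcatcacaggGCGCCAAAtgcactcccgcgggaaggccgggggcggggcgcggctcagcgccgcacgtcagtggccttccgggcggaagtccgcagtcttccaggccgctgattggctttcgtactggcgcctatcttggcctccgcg
Mki67: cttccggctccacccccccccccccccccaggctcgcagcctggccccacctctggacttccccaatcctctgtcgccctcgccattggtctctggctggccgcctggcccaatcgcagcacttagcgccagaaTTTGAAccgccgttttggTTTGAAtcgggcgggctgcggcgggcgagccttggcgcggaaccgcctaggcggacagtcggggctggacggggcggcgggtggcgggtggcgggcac

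Contractile genes were split. Of 36 tested, 10 were higher and 7 lower, with a median of 0.13. Tagln, the actin-binding protein transgelin, was at 572 CPM in Nx10 and 3655 CPM in Hx10, Acta2, smooth muscle actin, at 1062 and 3589 CPM, and Myocd, the coactivator that drives smooth muscle genes, at 2.43 and 15.3 CPM. Mylk, myosin light chain kinase, was lower, at 22 and 6.61 CPM, and Des, desmin, was at 68.8 and 42.1 CPM, and the set did not shift together. Targets of YAP, the coactivator that responds to cell tension and crowding, had 8 of 21 higher and 4 lower. Ankrd1, a stretch-responsive repeat protein, was at 14.5 and 97.7 CPM, and Ccn2, connective tissue growth factor, at 40.6 and 182 CPM. The TEAD element GGAATG was in 10 of 19 promoters of this list (52.6%) against 12.6% of all, and members with and without it had medians of 0.56 and -0.50, in 9 and 7 genes. The Ankrd1 promoter (chr19:36119845-36120094, minus strand), of the member with the largest ratio among those with a match, holds it at 210 and 123 bases before the start, in capitals.
Ankrd1: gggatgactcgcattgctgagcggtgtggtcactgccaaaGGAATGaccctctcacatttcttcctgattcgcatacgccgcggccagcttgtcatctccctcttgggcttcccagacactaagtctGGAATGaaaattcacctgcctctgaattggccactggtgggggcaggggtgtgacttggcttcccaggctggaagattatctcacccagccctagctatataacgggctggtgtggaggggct

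Secreted signals moved member by member. Inhba, the activin A subunit, was at 6.31 CPM in Nx10 and 38.1 CPM in Hx10, and Smad7, the feedback inhibitor of the TGF-beta family, at 51.2 and 215 CPM, while Tgfb3 was at 32 and 6.74 CPM. Nog, the BMP antagonist noggin, was at 0.958 and 12.4 CPM, and Id3, a BMP target, at 130.3 and 326 CPM. WNT genes had 3 of 32 higher and 20 lower, with Wnt5b at 37.2 and 1.51 CPM and Sfrp1, a secreted WNT antagonist, at 217 and 28.6 CPM, but Rspo3, which amplifies WNT signals, was at 34.3 and 92.7 CPM. Vegfa, the main growth factor of vessels, was at 37.3 CPM in Nx10 and 147 CPM in Hx10, whereas its receptor Kdr, on endothelial cells, was at 61.5 and 3.29 CPM, and the vessel-stabilising ligand Angpt1 at 223 and 25 CPM. Only 2 cells of Nx10 and 23 of Hx10 were in endothelial-like clusters. The log2 ratio of Kdr was -3.86 over all cells, -3.84 with classes weighted to their Nx10 shares and -4.47 without macrophage-, endoderm-, erythroid-, cardiomyocyte- and endothelial-like cells. Edn1, endothelin, was at 8.69 and 36.2 CPM and Cxcl12, a chemokine for progenitor cells, at 55.5 and 148 CPM. Imprinted genes diverged, with Phlda2 at 7.65 and 34.9 CPM and Peg3 at 1340.4 and 202 CPM.

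Extracellular matrix genes were lower as a set. Of 25 collagen chains 4 were higher and 17 lower, with a median of -0.94, and of 39 matrix glycoproteins and proteoglycans 0 were higher and 24 lower, with a median of -1.04. Col1a2, a chain of collagen I, was at 2122 CPM in Nx10 and 502 CPM in Hx10, and Dcn, decorin, at 679 and 99.5 CPM. Lama2, a laminin of muscle basement membrane, was at 49.4 and 3.67 CPM. In contrast, Col8a1, a short-chain collagen of vessel walls, was at 5.61 and 61.6 CPM, and Col4a1, of basement membranes, at 119.7 and 210.1 CPM. Postn, periostin, was at 441 and 445 CPM. Mesenchymal and mesodermal transcription factors had 2 of 41 higher and 32 lower, with a median of -1.42. Zfhx4, a large zinc finger homeodomain factor, was at 77.1 and 4.03 CPM, and Tcf21, of visceral and cardiac mesenchyme, had a log2 ratio of -2.69, while Gata3 was at 3.31 and 21.8 CPM. The 10 fibroblast markers summed to 8923 and 3718 CPM, but they include Col1a2, Dcn, Postn and Tcf21, so their sum is no separate gauge of cell makeup. In the clusters described below, the one named fibroblast held 269 cells of Nx10 and 0 of Hx10. The one named mesothelial or epicardial held 456 and 0. The part of cell makeup in these gene groups was not tested.

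Axon guidance and adhesion genes, many of which mesenchyme also expresses, had the lowest median of the 49 lists after the mitochondrial RNAs, -1.82, with 1 of 40 higher and 30 lower. Tenm4 (ENSMUSG00000048078, chr7:96171246-96911093), a teneurin adhesion receptor, was at 366 CPM in Nx10 and 10.4 CPM in Hx10. Nrxn3, a neurexin, was at 118 and 4.02 CPM, and the netrin receptor Unc5c at 281 and 11.3 CPM. Its relative Unc5b was the member that was higher, with a log2 ratio of 0.79.

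Many of these genes are long, and genes of at least 200 kb had lower ratios than shorter ones, among which length made little difference. Among 10325 genes with a GENCODE M21 span, the median log2 ratio was -0.46 for 2201 genes under 10 kb, -0.40 for 4802 of 10 to 50 kb, -0.40 for 2644 of 50 to 200 kb and -1.23 for 678 of at least 200 kb, of which 69.9% were at least 1.5-fold lower. After 16 h at day 8 the same 4 classes had medians of -0.13, -0.15, -0.07 and 0.00. Of the 40 axon guidance genes 24 were at least 200 kb long, with a median of -2.40 against -1.17 for the other genes that long. The 10 members of 50 to 200 kb had a median of -1.04 against -0.40, and the 6 of 10 to 50 kb -0.20 against -0.40. Over 200 kb were also 10 of the 41 mesodermal factors, 7 of the 39 matrix genes and 5 of the 25 collagens, as well as 9 of the 15 genes with the lowest ratios and 0 of the 15 with the highest. Adam12, a membrane metalloprotease with a span of 349 kb, was at 259 CPM in Nx10 and 4.80 CPM in Hx10. Angptl7, a secreted angiopoietin-like protein with a span of 5.28 kb, had the lowest ratio of the genes ranked and was at 73.4 and 0.482 CPM. Gene spans were looked at after the ratios had been seen, the sources used here did not state whether intronic reads were counted, and the part of length in these results was not tested.

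Genes of lipid synthesis were mostly lower, with 1 of 34 higher and 21 lower and a median of -0.74. Elovl6, a fatty acid elongase, was at 88.5 and 13.3 CPM, and Insig2, which holds back cholesterol synthesis and is a known HIF target, was the member that was higher, at 45.3 and 96.7 CPM. Fabp5, a fatty acid carrier, was at 478 and 1614 CPM, while Etfb, which passes electrons from fatty acid oxidation to the respiratory chain, was at 177 and 29.5 CPM. Galectins, S100 proteins and annexins had 5 of 17 higher and 3 lower. Lgals3, a galectin of macrophages and stressed epithelium, was at 14.5 and 71.5 CPM, and S100a6, a calcium-binding protein, at 595 and 1696 CPM.

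The spread between cells was compared after each cell was thinned to 5000 UMIs, which kept 2517 cells of Nx10 and 3997 of Hx10 and left out 162 and 619 shallower ones. The HIF and glycolysis lists together took 0.80% of UMIs of the median Nx10 cell and 2.02% of the median Hx10 cell (0.804% and 1.97% without thinning). Of the Hx10 cells 99.1% lay above the Nx10 median and 57.8% above the 95th percentile of Nx10, while the others lay at or below that percentile. Mitochondrially encoded RNA went from 3.98% to 0.58% of the median cell's UMIs (3.92% and 0.562% without thinning), and 57.4% of Hx10 cells lay below the 5th percentile of Nx10. Small nucleolar RNA hosts went from 0.12% to 0.46%, with 66.8% of Hx10 cells above the 95th percentile of Nx10, and cytosolic ribosomal proteins from 22.2% to 32.2%. A share of UMIs rises when others fall, so these shares are not independent.

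Contractile and cell cycle genes differed most at the upper end of the range of cells. Contractile genes took 1.96% and 2.40% of the median cell's UMIs, but the 95th percentile went from 4.20% to 6.28%. S phase and mitotic genes took 0.18% and 0.12% at the median, whereas the 75th percentile went from 0.68% to 0.18%. Collagens were lower from the 25th percentile (0.52% and 0.18%) through the median (0.82% and 0.32%) to the 95th (2.06% and 1.02%). Axon guidance genes took 0.52% and 0.14% at the median, and 1.05% of Hx10 cells were above the Nx10 median.

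**Figure D3:**
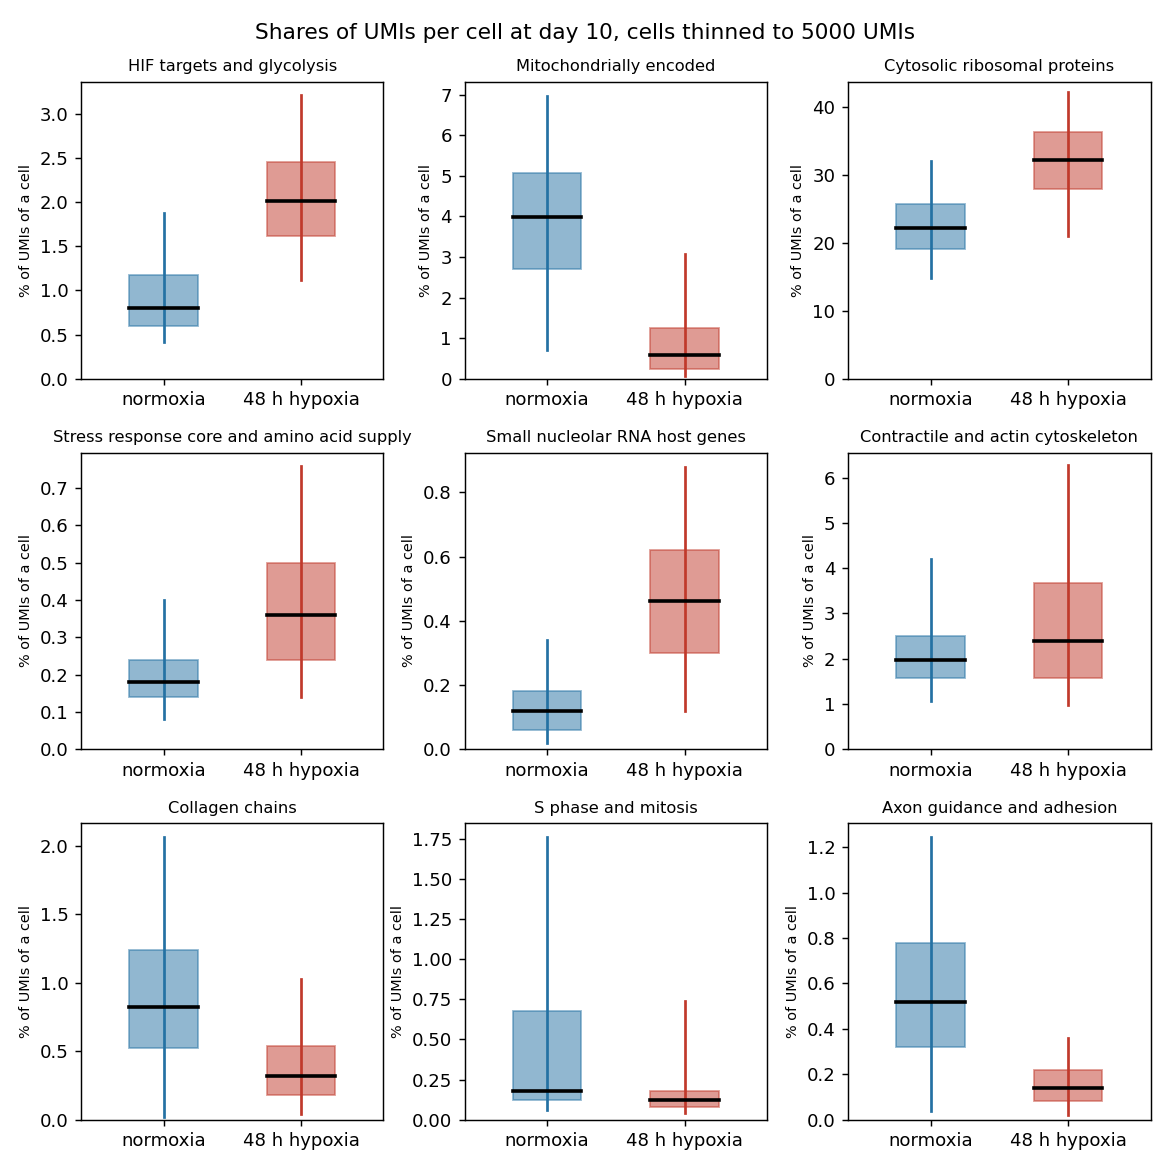
Share of a cell's UMIs (y axis, percent) in 9 groups of genes for cells of Nx10 and Hx10 thinned to 5000 UMIs; boxes span the 25th to 75th percentile of cells, lines the 5th to 95th, and black bars mark the median. HIF targets with glycolysis, ribosomal proteins and small nucleolar RNA hosts sit higher in hypoxia and mitochondrially encoded RNA sits lower.

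Clustering was done without HIF, glycolysis, cell cycle, stress, mitochondrial and ribosomal genes, and the libraries still separated. At a resolution of 1, 7 of 21 clusters were at least 90% Nx10 and held 2270 of its 2679 cells (84.7%), while 9 were at least 90% Hx10 and held 4251 of its 4616 cells (92.1%). With 1 library a side, library and cell state cannot be told apart in these clusters. Within Hx10 the clusters differed from each other in the same gene groups, given here as a description because these cells formed the clusters. The mitochondrial share of the median cell, at 5000 UMIs, was 1.60% in a cluster led by Inhba, Cryaa and Ccl17. It was 0.22% in a second cluster, led by Gata3, Phlda2 and Cecr2. The contractile share was highest in the first of these, 4.78%, and it was 1.48% in the second. HIF and glycolysis genes took between 1.72% and 2.37% in Hx10 cells of 8 clusters with no class name, above the range of 0.62% to 1.24% for Nx10 cells over 7 clusters, in both cases without the macrophage-like, endoderm-like and erythroid-like clusters. Hx10 cells of the macrophage-like cluster were at 1.19%, inside that range, and Nx10 cells of the endoderm-like cluster were at 1.26%. Across Hx10 cells the mitochondrial share correlated with the contractile share (Pearson r = 0.29, Spearman rho = 0.43, n = 3997 cells of 1 library, all at the same depth). Across Nx10 cells the correlation was also positive (Pearson r = 0.16, Spearman rho = 0.21, n = 2517). This pair was picked from several computed. All cells entered, macrophage-like cells included, and the part of cell class in the correlations was not tested.

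Only 2 named classes had 50 or more cells on both sides, and these were compared within class. Macrophage-like cells numbered 192 in Nx10 and 118 in Hx10, with a median of 20400 and 12271.5 UMIs. Endoderm epithelium-like cells numbered 66 and 60, with a median of 19091.5 and 6079.5 UMIs. The remaining 2387 and 4317 cells, mostly in clusters at least 90% from 1 library, served as a comparison, a set defined after the data were seen. Within a class, genes averaging 20 CPM or more and having 50 or more UMIs were tested, and 10.6% were 1.5-fold or more higher and 28.7% lower in macrophage-like cells, 12.1% and 34.2% in endoderm-like cells and 14.0% and 35.2% in the remaining cells.

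HIF targets stood above the median of all genes in all 3 sets. HIF targets had 15 of 28 higher and 3 lower in macrophage-like cells (median 0.62), 10 of 31 higher and 0 lower in endoderm-like cells (median 0.36) and 33 of 38 higher and 2 lower in the remaining cells (median 1.27). The glucose transporter Slc2a1 was at 47.4 and 144 CPM in macrophage-like cells, at 195 and 708 CPM in endoderm-like cells and at 200.01 and 958 CPM in the remaining cells, Nx10 first. Ldha was at 914 and 868 CPM in macrophage-like cells and 1018 and 1066 CPM in endoderm-like cells, and at 382 and 1076 CPM in the remaining cells. In normoxia its level was already highest in the named classes, and in hypoxia the 3 sets lay close together. Pgk1 had a like pattern, at 947 and 1490.2 CPM in macrophage-like, 1235 and 2199.5 CPM in endoderm-like and 344 and 1644 CPM in the remaining cells.

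Mitochondrially encoded RNA had unlike medians in the 3 sets. Its 13 members had a median of -0.43 in macrophage-like cells, with 5 lower, of -0.98 in endoderm-like cells, with 12 lower, and of -2.10 in the remaining cells, with 13 lower. mt-Co1, a cytochrome oxidase subunit, was at 9036 and 8977 CPM in macrophage-like cells, 5953 and 4398 CPM in endoderm-like cells and 5971 and 2754 CPM in the remaining cells. The stress response also differed. Its core had 3 of 11 higher and 1 lower in macrophage-like cells (median 0.18), 7 of 12 higher and 0 lower in endoderm-like cells (median 0.67) and 9 of 15 higher and 1 lower in the remaining cells (median 1.01). Atf4 was at 90.6 and 79.6 CPM in macrophage-like cells, 97.8 and 229.6 CPM in endoderm-like cells and 71.9 and 279.8 CPM in the remaining cells. For amino acid supply the macrophage-like cells had 0 of 21 higher and 12 lower, a median of -0.72, while the remaining cells had 10 of 21 higher and 1 lower, a median of 0.56. No difference between sets was tested.

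Small nucleolar RNA hosts had medians of 1.09, 0.69 and 1.74 in macrophage-like, endoderm-like and remaining cells, and Gas5 was at 178 and 417 CPM, at 307 and 739 CPM and at 373 and 1209 CPM. S phase genes had medians of -1.61, -1.40 and -1.61 with 0 higher in any set. Ribosome biogenesis factors had 0 of 23 higher and 19 lower in macrophage-like cells (median -1.23) and 0 of 25 higher and 21 lower in endoderm-like cells (median -0.84). In the remaining cells the list did not move as a block, with 3 of 23 higher and 8 lower, shares near those of all genes there (14.0% higher and 35.2% lower), and its summed level was 4215 CPM in Nx10 and 5208 CPM in Hx10.

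**Figure D4:**
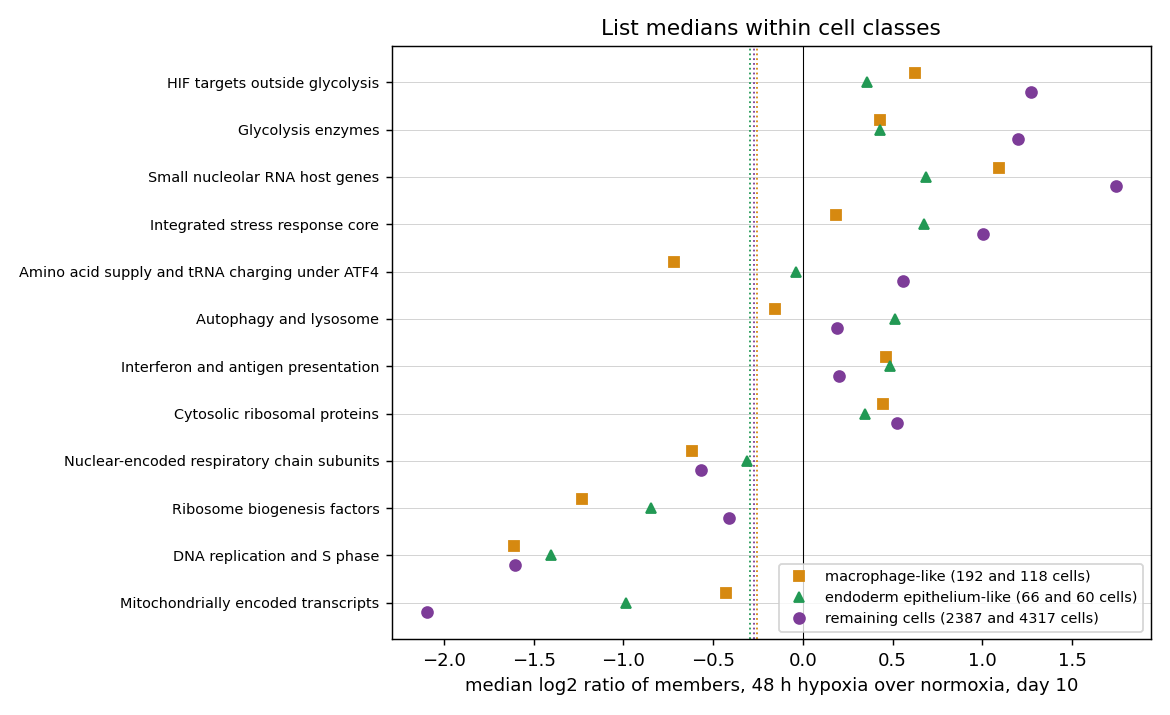
Median log2 ratio of CPM + 1 (Hx10 over Nx10) of gene lists (y axis) within macrophage-like, endoderm-like and remaining cells; dotted lines mark the median of all genes tested in each set. Mitochondrially encoded transcripts lie at -0.43, -0.98 and -2.10, and amino acid supply is below 0 in macrophage-like cells and above 0 in the remaining cells.

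Single genes differed most within each class as follows. In macrophage-like cells Stab1, a scavenger receptor of resident macrophages, was at 213 and 8.56 CPM, and Ms4a6c, a membrane protein of the myeloid lineage, had 282 UMIs and 1 UMI. The 14 fixed macrophage markers within this class had 0 higher and 9 lower, a median of -0.98, and summed to 9814 and 5591 CPM. The part of this in the values of Stab1 and Ms4a6c was not tested. Usp18, an interferon-induced protease, was at 1.12 and 54.0 CPM and Ifit2, an interferon-induced inhibitor of translation, at 2.92 and 67.8 CPM, with UMIs in 27 and 9 of the 118 macrophage-like cells of Hx10, and 7 of 16 interferon and antigen presentation genes were higher and 2 lower (median 0.46). In endoderm-like cells galectins, S100 proteins and annexins had 10 of 13 higher and 1 lower, a median of 1.44, with S100a6 at 83.2 and 730.2 CPM. Smooth muscle markers moved with them in this class: 4 of 4 tested were higher, and they summed to 173 and 5829.7 CPM, against 2052 and 7924 CPM in the remaining cells. The contractile list had 12 of 29 higher and 1 lower there. The markers of endoderm epithelium themselves had 1 of 10 higher and 6 lower, a median of -0.91, and summed to 7291 and 5884 CPM. The part of these markers in the galectin and S100 values was not tested. Nupr1 was at 5.84 and 130.3 CPM there. Shh, the hedgehog ligand, had 86 UMIs in the endoderm-like cells of Nx10 and 0 in those of Hx10. With 3 counts put in place of the 0 this is 16.2-fold lower, and the counting interval of the log2 ratio reached up to -3.69. Collagen I and III RNA, which epithelium and macrophages should lack, reached 1.66% and 7.41% of the level of the remaining cells in endoderm-like cells of Nx10 and Hx10, and 9.11% and 6.61% in macrophage-like cells. In the remaining cells Lgals3 was at 1.36 and 65.3 CPM, a log2 ratio of 4.81.

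Set beside the 16 h of hypoxia at day 8, where 4.56% of 10695 genes were at least 1.5-fold higher, 10.3% were lower and the median was -0.12, the lists fell into several patterns. The 2 comparisons share no library, but they differ in age as well as in duration, and no difference between them was tested. HIF targets had medians of 1.78 after 16 h and 1.28 after 48 h, and glycolysis 1.60 and 0.73. Bnip3, a mitophagy receptor, was at 57.1 CPM in Nx8 and 266 CPM in Hx8, and at 63.5 CPM in Nx10 and 127 CPM in Hx10. Lox, lysyl oxidase, was at 13.4 and 44.3 CPM at day 8 and at 93.4 and 96.9 CPM at day 10. Differences of like size at both ages were those of Ak4, with log2 ratios of 2.40 and 2.63, and of Vegfa, with 1.82 and 1.95.

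A second pattern was a list median far from 0 at 48 h and nearer to 0 at 16 h. The stress response core had medians of 0.12 and 1.02, small nucleolar RNA hosts 0.19 and 1.26 and amino acid supply -0.11 and 0.55. Some members were already higher at 16 h. These were 7 of 19 in the stress response core, with 1 lower, and 5 of 18 small nucleolar RNA hosts, with 2 lower. Of all genes 4.56% were higher then, and of 30 amino acid supply genes 0 were higher and 2 lower. Slc38a2 was at 84.8 and 105 CPM at day 8, Slc5a3 at 11.1 and 12.1 CPM and Fgf21 at 0.0353 and 0.141 CPM, with log2 ratios of 0.30, 0.11 and 0.14. Lower lists showed it too, with axon guidance at 0.13 and -1.82, mesodermal factors at -0.03 and -1.42, and collagens at 0.16 and -0.94. Lists lower at both ages were mitochondrially encoded transcripts, at -1.14 and -2.02, S phase genes, at -0.90 and -1.80, and mitotic genes, at -0.45 and -1.44.

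**Figure D5:**
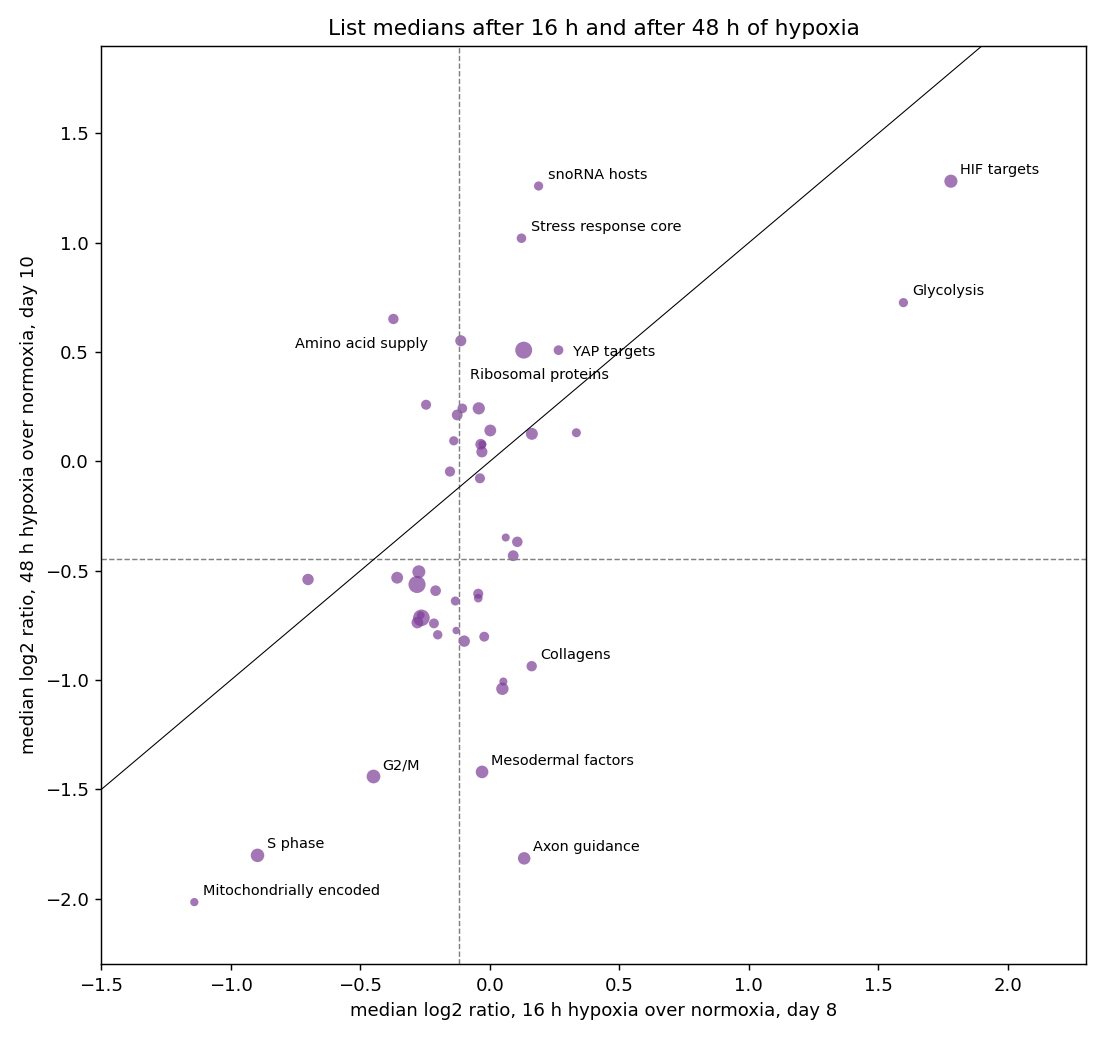
Median log2 ratio of CPM + 1 of each gene list after 16 h of hypoxia at day 8 (x axis) and after 48 h at day 10 (y axis); dashed lines mark the median of all genes, the diagonal marks equal values and larger points have more members. HIF targets and glycolysis lie below the diagonal at the right, and the stress response core and small nucleolar RNA hosts lie above it near 0 on the x axis. The diagonal does not allow for the unlike medians of all genes, -0.12 at day 8 and -0.44 at day 10.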

How the data were processed

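Single cells of 4 libraries, 1 per group, were profiled with 10x Genomics 3' chemistry (per the labels' protocols). The authors deposited 1 UMI count matrix per library, made with Cell Ranger 7.1.0 on mm10 (per the submitters' processing notes), over 32285 gene IDs, of which 32158 were in GENCODE mouse release M21. The deposited counts were summed over kept cells and scaled to CPM here. Ratios used a pseudocount of 1 CPM, and intervals are 95% Poisson or conditional binomial intervals. With 1 library per group no test was possible and a call means a ratio past the fold given: 2-fold for genes of mean at least 20 CPM and 1.5-fold for lists, at mean at least 5 CPM. UMIs removed amplification duplicates, but all cells of a library share its preparation.

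Kept cells of Nx10 and Hx10 were clustered with Leiden (scanpy 1.11.5, leidenalg 0.10.2) on 2000 variable genes, 30 principal components and 15 neighbours. Classes were named from fixed markers. Scrublet called 9 and 1 doublets (0.336% and 0.0217%), which is too few to have worked, so doublets were left in. TMM came from edgeR 4.0.16. Other tools were Python 3.11.15, pandas 2.3.3, scipy 1.17.1 and R 4.3.3. The gene ratios and their intervals were tested on simulated data, and the list steps were not.

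The members, the 49 gene lists and the 13 marker lists were chosen with earlier results of these data known. Genes were named by rule: the 15 highest and 15 lowest ratios, up to 6 members of largest absolute ratio per list, every member of lists of at most 15, the 5 highest and 5 lowest per class and a few fixed HIF targets. Others, such as Asns, Cs, Postn, Cks2, Lox, Gbe1, Hk2 and the genes followed within classes, were picked after their values were seen. Alternatives tried were the scaling, the pseudocount, the filters on genes and cells, equal weighting of cells, doublet removal, class weighting, thinning and the clustering resolution.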

Additional observations from a re-analysis of the deposited data

Results flagged for a closer look

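In 4 genes the hypoxia difference had opposite signs at the 2 ages, by at least 2-fold each way. The opposition itself was not tested, since each group was 1 library. Kcnh7 (ENSMUSG00000059742, chr2:62693414-63184287), a voltage-gated potassium channel, was at 70.2 CPM in Nx8 and 144 CPM in Hx8, a log2 ratio of 1.03, and at 255 CPM in Nx10 and 36.3 CPM in Hx10, a log2 ratio of -2.78. Clybl (ENSMUSG00000025545, chr14:122181704-122402234), a mitochondrial citramalyl-CoA lyase, was at 48.5 and 117 CPM at day 8 and at 64.8 and 31.7 CPM at day 10, log2 ratios of 1.25 and -1.01. Both genes span over 200 kb.

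Akr1b3 (ENSMUSG00000001642, chr6:34302434-34317478), aldose reductase, went the other way, from 64 and 30.4 CPM at day 8 to 47.2 and 120.0 CPM at day 10, log2 ratios of -1.05 and 1.33. Phlda2 (ENSMUSG00000010760, chr7:143501545-143503150), an imprinted gene that restrains placental growth, was at 33.7 and 13.5 CPM at day 8 and at 7.65 and 34.9 CPM at day 10, log2 ratios of -1.26 and 2.05.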

How the results depend on the processing

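With TMM scaling 1106 genes passed 2-fold upwards and 502 downwards, and medians were 1.82 for HIF targets, -1.47 for mitochondrially encoded RNA, -1.29 for S phase and -0.95 for mitotic genes. Without mt-, Rps and Rpl genes and Malat1 in the total, 511 genes were higher. After centring, 599 were higher and 819 lower, and the mitotic median was -1.17. A pseudocount of 10 CPM gave 1.02 for HIF targets, -1.13 for S phase and -1.02 for mitotic genes. A filter at 50 CPM gave 205 higher and 499 lower and an S phase median of -1.21, and no filter gave 644 and 3835. These scalings shift every ratio by construction, and the filters test other genes; the cause of the other shifts was not tested. Histone cluster genes, with a median of 0.65, turned to -0.24 at the 50 CPM filter and to -0.044 with no filter. Of 635 list medians under 13 alternatives, 569 stayed inside the 95% interval of the main median over list members, 64 left it and 2 reversed. The exits were uneven among the alternatives. Apart from HIF targets, glycolysis, mitochondrially encoded, S phase and mitotic genes, 31 list medians left it with TMM scaling and 13 stayed. With called doublets removed, 1 of the same medians left it and 43 stayed. Reversals were counted only for lists whose main median was at least 1.5-fold from 0. Smaller medians also changed sign with TMM scaling, as for splicing factors (-0.51 to 0.03) and Notch signalling (-0.35 to 0.17). Staying inside the interval need not mean a small shift, since TMM raised every ratio by 0.54. Cells thinned to 2000 UMIs gave median shares of 0.8% and 2.0% for HIF and glycolysis genes and 3.95% and 0.55% for mitochondrially encoded RNA. At a clustering resolution of 0.5, clusters at least 90% from 1 library held 84.3% of Nx10 and 93.9% of Hx10 cells. No paired analysis was possible because each group was 1 library and no result came from a test, and leaving out a replicate was not possible either. Depth limits genes of a few CPM and the classes of 66 and 60 cells most. Hypoxia and library preparation cannot be told apart with 1 library a side.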

Other observations

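Several gene groups have not yet been described. Immediate early genes, which respond within minutes to growth signals and to handling, did not move as a block, with 9 of 30 higher and 10 lower. Ier3, a survival factor, was at 70.9 CPM in Nx10 and 329 CPM in Hx10, and Dusp1, a phosphatase of stress kinases, at 48.3 and 203 CPM, while Egr1 was at 719 and 238 CPM and Egr2 had a log2 ratio of -2.40. Proteasome subunits had 0 of 35 higher and 15 lower, or 42.9% lower against 43.2% of all genes. Autophagy and lysosome genes had a median of 0.14, with 5 of 35 higher and 7 lower. In endoderm-like cells 14 of 28 of them were higher and 0 lower, a median of 0.51. Mitochondrial ribosomal proteins had 4 of 77 higher and 42 lower, a median of -0.72, opposite in sign to their cytosolic counterparts, although it was 0.27 below the median of all genes.

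Histone genes diverged from the S phase genes with which they are usually made. Of 25 tested, 13 were higher and 6 lower, and their median of 0.65 turned to -0.24 among the 7 members that passed a filter at 50 CPM. Hist1h1b, a linker histone of dividing cells, was at 253 CPM in Nx10 and 25.8 CPM in Hx10, whereas Hist1h4i was at 23 and 176 CPM and Hist1h2bc at 75.5 and 323 CPM. Most histone messages lack a poly-A tail, and near-identical copies can share reads, so single members are uncertain. Pim3, a kinase that promotes survival, was at 39.5 and 255 CPM, and Tnfrsf23, a decoy receptor for death ligands, at 5.06 and 35.3 CPM after 4.12 and 2.18 CPM at day 8. Hoxc4 had a log2 ratio of -2.61 among 11 HOX genes with 1 higher and 7 lower.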
